A study of Homo sapiens with 6 samples.

Results

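CCDC80, ADGRG1, AMIGO2, GASK1B, PRAG1 and TRIM55 are 6 of the 16215 genes that could be tested in HK-2 cells after exposure to phosphoramidon. They were picked by name because their levels were clearly and evenly lower in the treated libraries, so the group difference itself is a description here and carries no test. HK-2 cells are an established human line, immortalised from the epithelium of the renal proximal tubule, and were grown in serum-free keratinocyte medium with bovine pituitary extract and recombinant EGF. RNA-seq libraries were made from total RNA of untreated cells (n = 3) and of cells treated for 24 h with phosphoramidon (n = 3), which blocks zinc-dependent peptidases, among them neprilysin and the enzyme that makes endothelin. Neither a dose nor a vehicle is given in the labels, and the titles of the untreated libraries carry the letters CSE, which are not explained. All libraries come from 1 cell line, and nothing says that replicates were separate cultures, so a p-value here reflects how far these libraries scatter, and that scatter may be technical.

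The genes fall into several kinds. CCDC80 encodes a secreted protein found in the extracellular matrix. ADGRG1, also known as GPR56, encodes an adhesion G protein-coupled receptor, whose long extracellular part is cut from its membrane part and binds collagen III and transglutaminase 2, and which couples to G12/13 and RhoA. AMIGO2 encodes a transmembrane adhesion molecule with leucine-rich repeats and an immunoglobulin domain. GASK1B, listed as FAM198B in GENCODE 29, encodes a membrane protein of the Golgi apparatus related to kinases of the secretory pathway. PRAG1 encodes pragmin, a cytoplasmic pseudokinase that scaffolds CSK and SRC family signalling, and TRIM55 encodes MuRF2, a RING-type ubiquitin ligase of striated muscle that binds microtubules and the sarcomere. Membrane and secreted therefore describes the first 4 genes and not PRAG1 or TRIM55, which encode intracellular proteins.

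The sequences before the start sites are shown because the 6 genes were lower together, and they come from windows of 250 bases before to 50 bases after a RefSeq start site (GRCh38.p14). Windows were matched for 4 of the 6 genes, and where GENCODE 29 marks an exon only the bases free of it, or a short stretch around a motif, are given. Capitals mark TGANTCA, the letters bound by AP-1 factors. AMIGO2 is on the minus strand at chr12:47079960-47080209, CCDC80 on the minus strand at chr3:112641301-112641393, and the ADGRG1 stretches on the plus strand at chr16:57628428-57628454 and chr16:57628507-57628533. In GENCODE 29 CCDC80 begins at 112649530 and ADGRG1 at 57610652, so the stretches printed for these genes lie inside the gene spans. The CCDC80 stretch also stops 157 bases before the RefSeq start site of its window.
AMIGO2: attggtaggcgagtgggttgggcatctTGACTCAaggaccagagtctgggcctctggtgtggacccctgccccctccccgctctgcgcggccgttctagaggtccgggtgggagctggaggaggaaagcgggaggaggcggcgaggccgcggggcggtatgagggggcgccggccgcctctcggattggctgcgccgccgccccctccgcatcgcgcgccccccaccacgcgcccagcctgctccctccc
ADGRG1, first match: tgcccggcgcTGAGTCAtgggcatccc
ADGRG1, second match: gagaaatccaTGACTCAcatatatcgt
CCDC80: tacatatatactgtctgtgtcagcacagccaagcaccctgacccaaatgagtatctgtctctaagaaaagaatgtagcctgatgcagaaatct
The match of AMIGO2 begins 223 bases before the start site of the printed window and 231 bases before its other listed start site. Those of ADGRG1 begin 192 and 113 bases before the most downstream of its 3 listed start sites. Over whole windows, read on both strands, TGANTCA was found once in AMIGO2, at 1 site that its 2 overlapping windows share, in 1 of 3 windows of ADGRG1 and in none of CCDC80 or GASK1B. It was found in 7.71% of all 35116 windows and in at least 1 window of 9.37% of all 27305 genes. A match is a description of the letters and not a binding site.

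Other motifs were searched on both strands of the same windows. GGGCGG, the GC box (45.0% of all windows), was found in AMIGO2 alone of the 4 genes. CCAAT (34.6%) was found in AMIGO2 and GASK1B, TATAAA (11.5%) in GASK1B just after the start site, and CCGGAA, an ETS core (17.2%), in ADGRG1. TGACGTCA (1.85%), GGAATG (14.0%), CACGTG (7.26%) and GTCTAGAC (0.202%) were found in none of the 4. Some of these motifs can share bases, CCGGAA and GGAATG for example.

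The libraries held 18690100 to 24919568 assigned fragments, so 1 fragment on a gene of 1 kb was worth 0.0401 to 0.0535 FPKM (fragments per kilobase of gene, scaled to library size), the deposited unit. Over all tested genes, 33.5% passed limma's test at an adjusted p below 0.05, with 2902 lower (17.9%) and 2527 higher (15.6%). Without factors between libraries the split was 2163 lower and 3644 higher, and the median log2 fold change of all genes moved from 0.01 to 0.07. Of 14 epithelial and tubular markers, 8 stayed below 1 FPKM in every library, among them the proximal tubule genes LRP2, CUBN, SLC34A1 and AQP1, while EPCAM, KRT8, KRT18 and PAX8 were well expressed. Of the 9 tested, 4 were called lower and 0 higher: the keratins KRT8 (80.4 ± 4.23 to 56.8 ± 1.95 FPKM, SD, log2 fold change -0.57, limma adjusted p = 1.2e-04) and KRT18 (-0.53, adjusted p = 9.6e-05), GGT1 (-0.62, adjusted p = 0.022) and SLC34A1, which passed the filter on low genes only through the untreated group. EPCAM and PAX8 did not pass (-0.10 and 0.07). The part of this shift in the differences described here was not tested.

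CCDC80 (ENSG00000091986, chromosome 3, 112596794 to 112649530, minus strand, GRCh38) stood at 22.6, 22.3 and 22.5 FPKM in untreated replicates 1 to 3 and at 8.48, 8.03 and 8.38 FPKM in phosphoramidon replicates 1 to 3. The untreated values lie close together and far above all treated ones. The treated mean was 36.9% of the untreated mean (8.30 ± 0.237 against 22.5 ± 0.177 FPKM; errors beside levels are SD over the 3 libraries of a group throughout). The log2 fold change was -1.50 ± 0.04 (SE), from 2072 to 7307 fragments per library. Fold changes in this text are on the scale of log2(FPKM + 0.1) after scaling between libraries, which understates the change of low genes.

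ADGRG1 (ENSG00000205336, chromosome 16, 57610652 to 57665580, plus strand) stood at 21.8, 21.5 and 20.3 FPKM in untreated cells and at 6.93, 6.43 and 7.11 FPKM after phosphoramidon. The groups did not overlap, and treated cells kept 32.2% of the untreated mean. The log2 fold change was -1.69 ± 0.05 (SE). An antisense gene inside its span, ENSG00000261633, held at most 5 fragments in any library.

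AMIGO2 (ENSG00000139211, chromosome 12, 47075707 to 47079951, minus strand) was the highest of the 6 genes, at 75.0, 79.0 and 80.0 FPKM in untreated cells and 33.0, 31.4 and 34.6 FPKM after phosphoramidon. Every treated value was below every untreated one, with 42.3% of the mean left. The log2 fold change was -1.31 ± 0.04 (SE). Its untreated mean was at the 97.7th percentile of all tested genes.

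GASK1B (ENSG00000164125, chromosome 4, 158124474 to 158173318, minus strand) was the lowest, at 1.83, 1.86 and 1.98 FPKM in untreated cells and 0.326, 0.270 and 0.435 FPKM after phosphoramidon. The highest treated value was 23.8% of the lowest untreated one. The mean went from 1.89 ± 0.0837 to 0.343 ± 0.0837 FPKM, which leaves 18.2%. Treated libraries held 48, 53 and 67 fragments on this gene, and their coefficient of variation was 24.4%, where the square root of the lowest count gives a counting error of 14.4%. The log2 fold change of -2.24 ± 0.15 (SE) depends on the pseudocount, being -1.14 at a pseudocount of 1 and -2.52 at 0.01, and it was -2.57 with voom on recovered fragments.

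PRAG1 (ENSG00000275342, chromosome 8, 8317736 to 8386498, minus strand) stood at 43.2, 42.5 and 41.0 FPKM in untreated cells and at 19.9, 19.1 and 20.9 FPKM after phosphoramidon. It had the smallest difference of the 6, with 47.3% of the mean left and a log2 fold change of -1.15 ± 0.04 (SE). TRIM55 (ENSG00000147573, chromosome 8, 66126896 to 66175487, plus strand) stood at 11.9, 12.2 and 12.002 FPKM in untreated cells and at 4.19, 4.57 and 4.65 FPKM after phosphoramidon. Its treated mean was 37.1% of the untreated one, with a log2 fold change of -1.48 ± 0.05 (SE). The groups did not overlap for either gene.

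**Figure D1:**
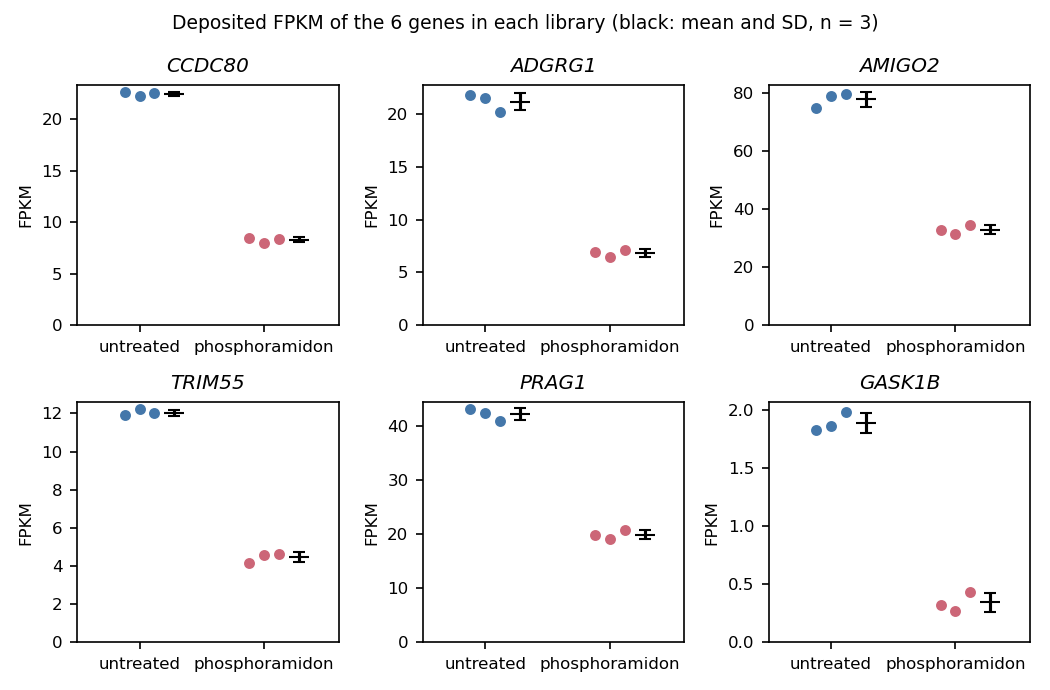
Deposited FPKM (vertical axis, from 0) of each gene in the 3 untreated (blue) and 3 phosphoramidon (red) libraries, with the group mean and SD in black. In every panel the treated points lie below all untreated points, from AMIGO2 at 75.0 to 80.0 FPKM down to 31.4 to 34.6 FPKM, to GASK1B at 1.83 to 1.98 FPKM down to 0.270 to 0.435 FPKM.

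On the deposited FPKM, without factors between libraries, no treated value reached an untreated one in 6 of the 6 genes. Such a gap held downwards for 18.4% of all tested genes and upwards for 31.2%, while limma's test after scaling called 17.9% lower and 15.6% higher. The 6 genes were chosen for this gap, so nothing is read from the count. By the size of the fold change they are not the 6 steepest: among 16215 tested genes ordered from the lowest fold change, GASK1B was at place 5, ADGRG1 at 26, CCDC80 at 41, TRIM55 at 43, AMIGO2 at 82 and PRAG1 at 125. Their levels differed widely: the untreated means of CCDC80 and ADGRG1 were at the 89.8th and 89.0th percentiles, of PRAG1 at the 95.2nd and of TRIM55 at the 80.1st, against the 38.8th for GASK1B. In untreated cells the order was AMIGO2, PRAG1, CCDC80, ADGRG1, TRIM55 and GASK1B, and the order after phosphoramidon was the same. CCDC80 and ADGRG1 were the closest neighbours in that order, at 22.5 ± 0.177 and 21.2 ± 0.841 FPKM in untreated cells. Their untreated values did not overlap (22.3 to 22.6 and 20.3 to 21.8 FPKM). Such an order between genes depends on the gene length used, which was 13071 bases for CCDC80, 8659 for ADGRG1 and 3956 for AMIGO2. In untreated replicate 1, CCDC80 held 6952 fragments and AMIGO2 held 6966.

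**Figure D2:**
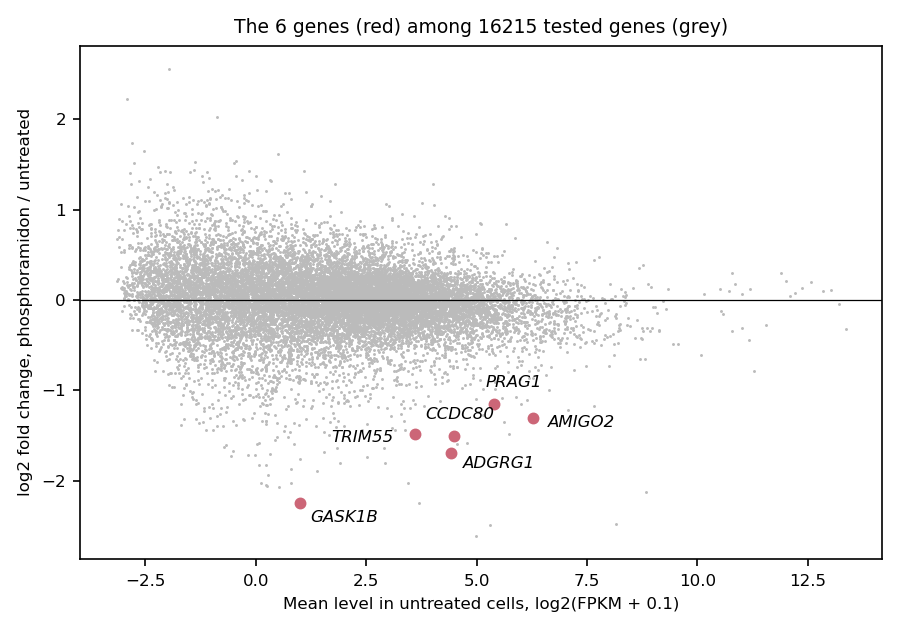
Log2 fold change (vertical axis) against the mean level in untreated cells on the scale log2(FPKM + 0.1) (horizontal axis) for all 16215 tested genes in grey and the 6 genes in red. The 6 points lie at the lower edge of the cloud, from PRAG1 at -1.15 to GASK1B at -2.24, and 5 of them at well expressed levels.

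Among themselves the genes differed in how evenly the treated libraries behaved. The coefficient of variation in untreated cells ran from 0.787% for CCDC80 to 4.43% for GASK1B, and after phosphoramidon from 2.86% for CCDC80 to 5.53% for TRIM55, with GASK1B at 24.4%. For TRIM55 the counting error of the lowest count, 241 fragments, was 6.44%, above its treated coefficient. For CCDC80, ADGRG1, AMIGO2 and PRAG1 that error was 2.02% to 2.99%, below their treated coefficients. The part of counting in these differences was not tested. Phosphoramidon replicate 2 was the lowest treated library for 5 of the 6 genes, all but TRIM55, which was lowest in replicate 1. Without replicate 2 the log2 fold changes ran from -1.12 for PRAG1 to -2.12 for GASK1B.

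The genes with the most similar course were looked for by Pearson's r of log2(FPKM + 0.1) over the 6 libraries. With 2 groups of 3 libraries this measure mostly reflects the group difference, and it is given without a p. ADGRG1 and PRAG1 were each other's closest gene (r = 0.9998), followed for both by ACO1, the iron-sensing cytosolic aconitase (r = 0.9996 and 0.9994). For AMIGO2 they were CYP24A1, the vitamin D 24-hydroxylase (r = 0.9998), and SLC2A2, the glucose transporter GLUT2 (r = 0.9997). For CCDC80 they were the bicarbonate transporter SLC4A4 (r = 0.9996) and COA7, a cytochrome c oxidase assembly factor (r = 0.9995). TRIM55 had FAM20C and SLFN5 (r = 0.9993 for each), and GASK1B had UPP1, a uridine phosphorylase (r = 0.9990), and STYXL1 (r = 0.9987). The size of the change differed within these pairs, as ACO1 had a log2 fold change of -0.51 beside -1.69 for ADGRG1, while SLC2A2 had -2.49 beside -1.31 for AMIGO2.

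Relatives, binding partners and signalling genes of the 6 are not part of the rule that chose them, but the lists were drawn up with earlier results of these data known, so their counts are a description. In 7 lists, 92 such genes were tested, and 25 fell while 20 rose by limma's test (48.9% called, against 33.5% of all tested genes). The median log2 fold change was 0.02, against 0.01 over all tested genes. For the counts per list below, the shares over all tested genes were 17.9% lower and 15.6% higher. On the values as deposited the split was 21 lower and 27 higher, and without a filter on low genes 20 and 11. Of the 92, ADGRG3 and TRIM67 passed the filter (at least 10 fragments in at least 3 libraries) only through the group where they were higher, so a difference was favoured before the test. Without such genes, 24 of 90 fell and 19 rose (47.8% called, against 33.1% of all tested genes).

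For ADGRG1, 6 of 18 tested adhesion G protein-coupled receptors fell and 3 rose, with a median log2 fold change of -0.07. ADGRF4 went down from 0.957 ± 0.0689 to 0.266 ± 0.0178 FPKM (-1.59 ± 0.14 on the log2 scale, with SE as below, limma adjusted p = 8.8e-05). ADGRG3, a close paralog that lies next to ADGRG1, was at 0.212 ± 0.0437 and 0.0456 ± 0.0292 FPKM (-1.15 ± 0.20), with 14 to 21 fragments in untreated and 2 to 5 in treated libraries. ADGRG3 is counted among the 6, but it entered the test only through the untreated group, and its call was lost without a filter (adjusted p = 0.055). ADGRE2 also fell (-0.78), at a low level, a call that was lost without a filter (adjusted p = 0.098). ADGRG2 went the other way, from 0.490 ± 0.0521 to 1.28 ± 0.135 FPKM (1.16 ± 0.14, adjusted p = 4.2e-04). ADGRG5, the other paralog in this cluster, held at most 6 fragments in any library and was not tested.

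Of the ligands and signalling genes of ADGRG1, 2 of 14 tested fell and 5 rose, with a median of 0.14. TGM2, the transglutaminase that binds the receptor, fell from 64.2 ± 1.995 to 40.9 ± 1.11 FPKM (-0.72 ± 0.04, limma adjusted p = 1.1e-05). COL3A1, the collagen ligand, was at 0 in all 6 libraries. The tetraspanin CD9 rose from 0.783 ± 0.211 to 1.54 ± 0.173 FPKM (0.85, adjusted p = 0.0081, and adjusted p = 0.052 without a filter). ARHGEF11 and ARHGEF12, exchange factors that link G12/13 to RhoA, rose by smaller amounts (0.26 and 0.25), and the call of ARHGEF11 was lost without a filter (adjusted p = 0.051).

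Around AMIGO2, 4 of 16 tested genes of the AMIGO and leucine-rich repeat adhesion list fell and 2 rose, with a median of -0.02. FLRT3, a leucine-rich repeat adhesion protein that binds latrophilins, fell from 8.75 ± 0.525 to 3.33 ± 0.332 FPKM (-1.44 ± 0.07, limma adjusted p = 7.9e-06). The adhesion gene LRFN1 (-0.42, adjusted p = 0.036) was near the threshold, and its call was lost in 8 of the 12 alternatives that gave it a value, among them each fit with 1 library left out, except the fit without phosphoramidon replicate 1 (adjusted p from 0.022 to 0.11 over the alternatives). PDPK1, a kinase reported to bind the AMIGO2 protein, rose from 3.01 ± 0.151 to 4.34 ± 0.196 FPKM (0.44, adjusted p = 0.0013), and LRIG1, a restraint on EGF receptors, rose from 1.223 ± 0.177 to 1.83 ± 0.0210 FPKM (0.49, adjusted p = 0.014, and 0.063 without a filter). The paralog AMIGO1 was low, at 0.126 ± 0.0436 and 0.187 ± 0.0568 FPKM, and its log2 fold change of 0.30 ± 0.21 did not pass (adjusted p = 0.30).

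Among secretory pathway kinases, the family of GASK1B, 2 of 8 tested genes fell and 1 rose, with a median of -0.02. FAM20C, the Golgi kinase that phosphorylates many secreted proteins, fell from 33.9 ± 0.315 to 21.2 ± 0.646 FPKM (-0.75 ± 0.04, limma adjusted p = 6.8e-06). FJX1 fell from 5.47 ± 0.211 to 4.17 ± 0.398 FPKM (-0.45, adjusted p = 0.0021), and DIPK2A rose from 3.99 ± 0.391 to 6.63 ± 0.361 FPKM (0.65, adjusted p = 8.0e-04). The paralog GASK1A held at most 1 fragment in any library and was not tested.

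For PRAG1, 3 of 15 tested genes of the pseudokinase and SRC adaptor list fell and 3 rose, with a median of 0.07. PEAK1, the related pseudokinase scaffold, rose from 2.45 ± 0.0342 to 3.27 ± 0.0280 FPKM (0.34 ± 0.07, limma adjusted p = 0.0049), opposite to the direction of PRAG1. The kinase SRC fell from 14.1 ± 0.528 to 12.2 ± 0.404 FPKM (-0.28, adjusted p = 0.0025), and its relative FYN rose from 3.70 ± 0.179 to 5.36 ± 0.522 FPKM (0.45, adjusted p = 0.0048). CBLB, a ubiquitin ligase of receptor signalling, fell (-0.34). PEAK3 held at most 5 fragments and was not tested.

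For TRIM55, 3 of 9 tested genes of the MuRF and COS-box list fell and 3 rose, with a median of -0.02. The microtubule-binding ligase MID1 fell from 9.85 ± 0.245 to 7.77 ± 0.240 FPKM (-0.41, limma adjusted p = 6.1e-04) and TRIM46, an organiser of axonal microtubules, from 1.55 ± 0.101 to 1.01 ± 0.186 FPKM (-0.65, adjusted p = 0.0067). TRIM36 rose from 1.81 ± 0.0164 to 2.68 ± 0.146 FPKM (0.48, adjusted p = 0.0021). TRIM67, counted among the 3 higher, was at 0.0297 ± 0.0119 and 0.138 ± 0.0286 FPKM, with 4 to 9 fragments in untreated and 20 to 31 in treated libraries. It entered the test only through the treated group, and its call was lost without a filter (adjusted p = 0.11). The muscle paralogs TRIM54 and TRIM63 held at most 5 and 2 fragments and were not tested. Of 10 striated muscle markers measured, all stayed below 1 FPKM, MYOG was at 0 throughout, and the summed level ran from 1.37 to 1.53 FPKM in untreated and 1.31 to 1.57 FPKM in treated libraries.

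Among relatives of CCDC80 and heparan sulfate proteoglycans, 5 of 12 tested genes fell and 3 rose, with a median of -0.07. The sushi-repeat proteins SRPX2 and SRPX fell from 2.93 ± 0.194 to 1.57 ± 0.168 FPKM (-0.93 ± 0.10, limma adjusted p = 3.2e-04) and from 17.6 ± 1.23 to 15.4 ± 0.156 FPKM (-0.26 ± 0.06, adjusted p = 0.011). The glypican GPC4 fell from 12.4 ± 0.160 to 9.74 ± 0.706 FPKM (-0.41, adjusted p = 0.0017) and the syndecan SDC1 fell (-0.29), while GPC5 rose at a low level (0.67, adjusted p = 0.020). The call of GPC5 was lost without a filter (adjusted p = 0.19) and without untreated replicate 3, phosphoramidon replicate 1 or phosphoramidon replicate 2 (adjusted p = 0.059, 0.059 and 0.053).

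CCDC80 is also known from fibroblasts and fat cells, so markers of those cells are given beside it. Of 9 fibroblast markers, 4 could be tested and all 4 fell, against 17.9% lower over all tested genes. Their log2 fold changes were -1.48 for LUM, -1.34 for COL1A1, -1.24 for DCN and -0.61 for PDGFRB. LUM and COL1A1 were the only ones of the 9 that reached 1 FPKM. The summed level ran from 60.9 to 65.8 FPKM in untreated and from 23.5 to 25.0 FPKM in treated libraries, while COL3A1 was at 0 and COL1A2, PDGFRA, THY1 and FAP were too low to test. Of 7 adipocyte markers PPARG alone reached 1 FPKM (sums of 4.02 to 4.39 and 3.29 to 3.54 FPKM), and ADIPOQ was at 0. PPARG was also the only adipocyte marker tested, and it was called lower (log2 fold change -0.37, limma adjusted p = 0.0026). The part of such markers in the difference of CCDC80 was not tested. ADGRG1 is a marker of cytotoxic lymphocytes, and the 6 lymphocyte markers measured summed to 0.0872 to 0.114 FPKM in untreated and 0.0597 to 0.178 FPKM in treated libraries, with CD3D at 0. Endothelial markers summed to 0.0911 to 0.155 and 0.169 to 0.251 FPKM, and of the neuronal and glial markers SNAP25 and SYT1 reached 1 FPKM (sums of 9.45 to 10.6 and 10.2 to 11.5 FPKM), with none of those tested in the 2 lists passing. Fewer cells expressing a gene and less RNA per cell cannot be told apart in these bulk libraries.

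**Figure D3:**
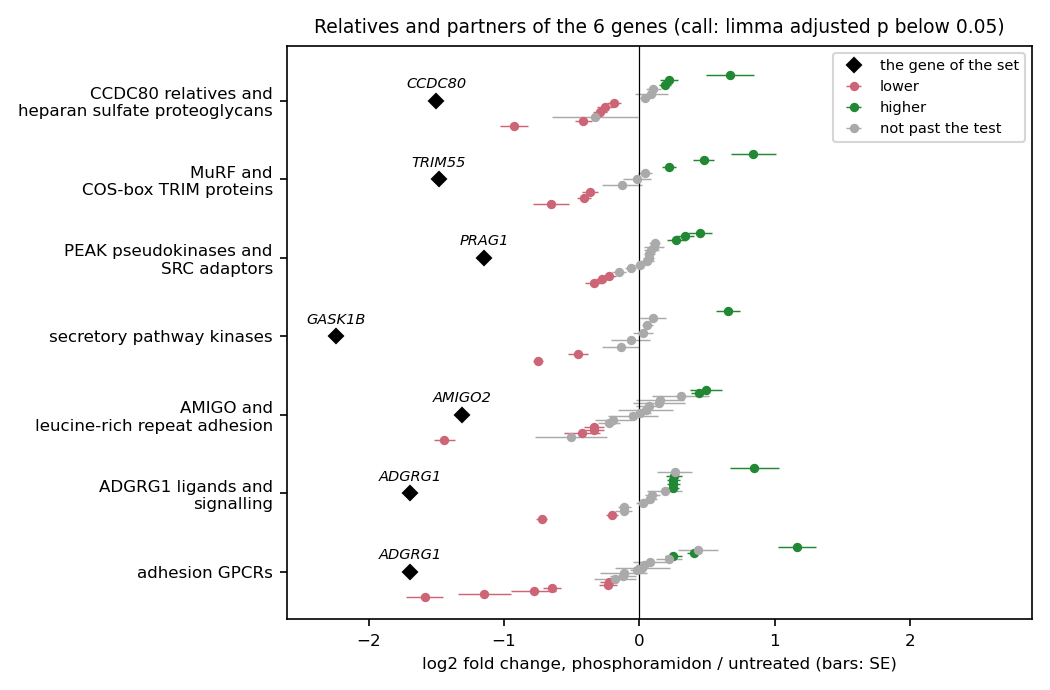
Log2 fold change with SE (horizontal axis) of each tested gene in the 7 lists of relatives and partners, coloured by its call at an adjusted p below 0.05, with the gene each list belongs to as a black diamond. The coloured points lie on both sides of 0 in every list, and the lowest are ADGRF4 at -1.59 and FLRT3 at -1.44.

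Position was not used to choose the genes either. Of the nearest 3 tested genes on each side, 36 in all, 7 fell and 5 rose by limma's test, which is 19.4% lower against 17.9% of all tested genes. Of the 7, ADGRG3 and GASK1B-AS1 entered the test only through the untreated group where they were higher, and without such genes 5 of 34 fell (14.7%, against 17.7% of all tested genes). On the values as deposited the split was 5 lower and 9 higher. Leaving out 1 library at a time gave 3 to 8 lower and 3 to 5 higher, with 3 lower without untreated replicate 1 or 2, 4 lower without phosphoramidon replicate 2 or 3, and 3 higher without untreated replicate 1 or 3 or phosphoramidon replicate 2. With voom 11 fell.

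PCED1B, a PC-esterase domain gene, starts 348 bases from the start of AMIGO2 on the opposite strand, and the gene bodies overlap by 349 bases. PCED1B fell from 1.17 ± 0.0732 to 0.620 ± 0.139 FPKM (-0.90 ± 0.17, limma adjusted p = 0.0042). GASK1B-AS1, an antisense RNA gene, overlaps the first 2567 bases of GASK1B and was at 0.114 ± 0.0411 and 0.0344 ± 0.0113 FPKM (-0.68 ± 0.19), with 10 to 22 fragments in untreated and 3 to 5 in treated libraries. It entered the test only through the untreated group, and its call was lost at a pseudocount of 1 (adjusted p = 0.054), without a filter (adjusted p = 0.21) and without phosphoramidon replicate 2 or 3 (adjusted p = 0.065 and 0.063). ADGRG3, which starts 57535 bases beyond the start of ADGRG1 on the same strand, was lower as given above. The use of strand in counting is not given in the sources used here, so reads from the overlaps cannot be assigned to either gene with certainty. AMIGO2 held 2442 to 7850 fragments per library beside 30 to 78 on PCED1B. GASK1B held 48 to 388 beside 3 to 22 on GASK1B-AS1. The part of such reads in the differences was not tested.

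The other nearest tested genes, and further neighbours that passed, were as follows. SLC35A5 and GTPBP8, on the 2 sides of CCDC80, had log2 fold changes of 0.11 and -0.12 and did not pass (limma adjusted p = 0.19 and 0.18). CCDC102A, before ADGRG1, had -0.17 (adjusted p = 0.11), and ENSG00000275481, beyond AMIGO2, had 0.50 ± 0.27 (adjusted p = 0.19). Beside TRIM55, PDE7A had 0.14 (adjusted p = 0.12) and RRS1 -0.15 (adjusted p = 0.17). Beside PRAG1, FAM86B3P had -0.16 and ENSG00000253130 had -0.38 ± 0.28 (adjusted p = 0.55 and 0.34). GLRB, which starts 1097261 bases from the start of GASK1B, rose from 3.30 ± 0.242 to 4.86 ± 0.394 FPKM (0.48, adjusted p = 0.0022). Among neighbours further out, named because they passed, DOK4 near ADGRG1 fell from 13.6 ± 0.366 to 11.0 ± 0.468 FPKM (-0.39, limma adjusted p = 5.3e-04), as did POLR2C (-0.19, adjusted p = 0.038). Near TRIM55, MYBL1 rose from 10.1 ± 0.510 to 13.9 ± 0.846 FPKM (0.38, adjusted p = 0.0011), ARMC1 and VCPIP1 rose (0.26 and 0.21) and MTFR1 fell (-0.19). MFHAS1 near PRAG1 rose (0.24, adjusted p = 0.033), and PDGFC near GASK1B, a platelet-derived growth factor, fell (-0.21, adjusted p = 0.0052).

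**Figure D4:**
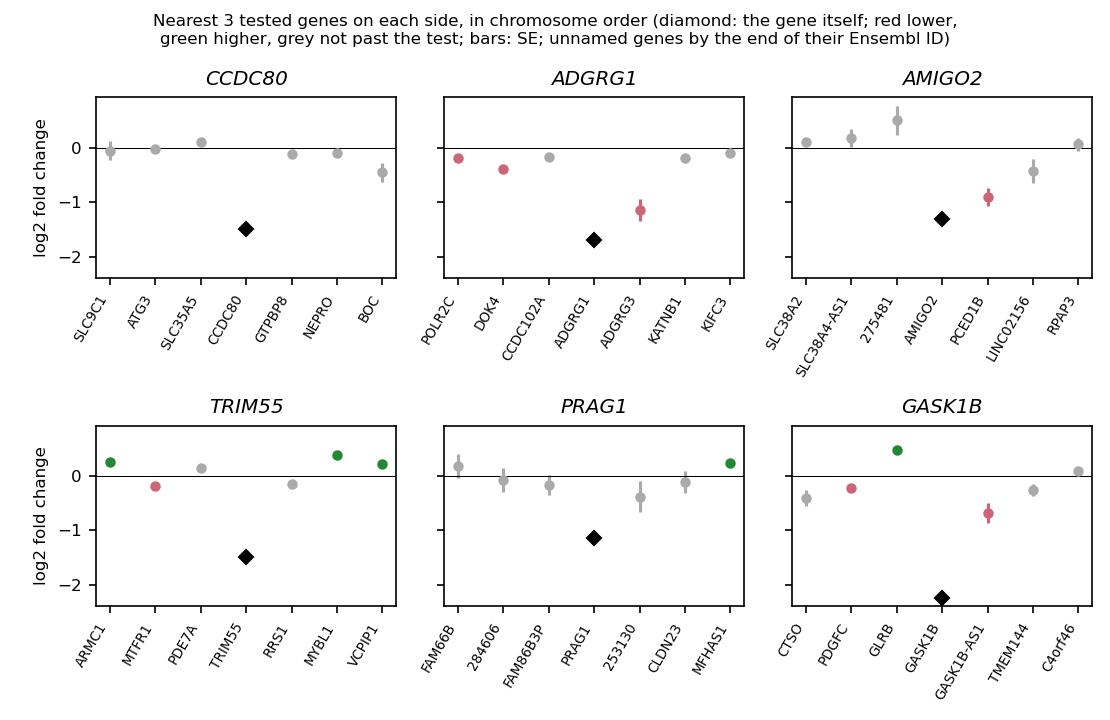
Log2 fold change with SE (vertical axis) of the nearest 3 tested genes on each side of each of the 6 genes, in chromosome order and not to distance, with the gene itself as a black diamond and red, green and grey for lower, higher and not past the test. PCED1B beside AMIGO2, GASK1B-AS1 beside GASK1B and ADGRG3 beside ADGRG1 lie at -0.90, -0.68 and -1.15, and the other neighbours lie between -0.45 and 0.50.

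**Figure D5:**
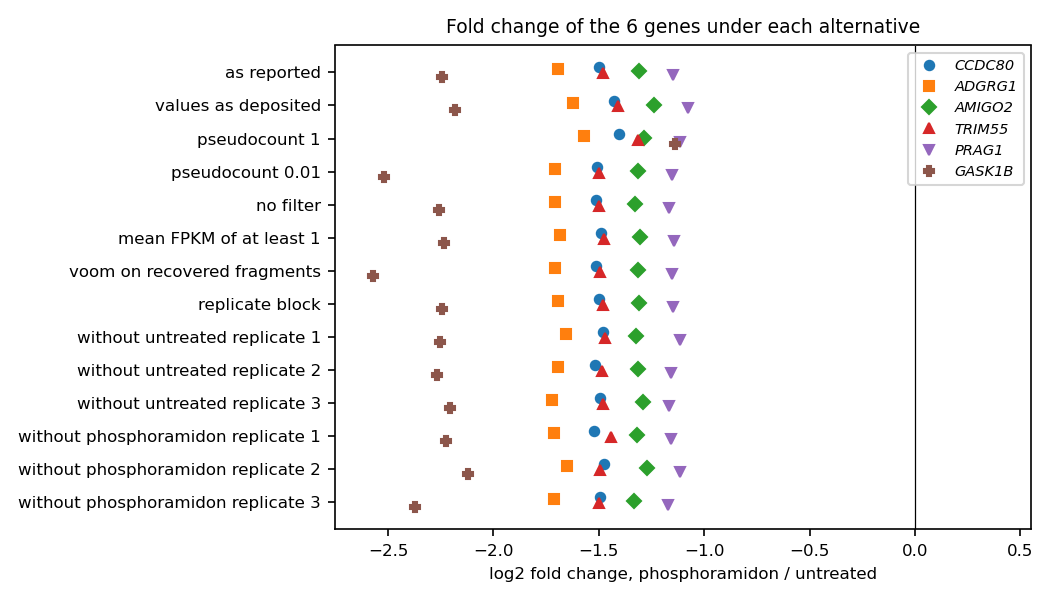
Log2 fold change (horizontal axis) of the 6 genes as reported and under 13 alternatives (vertical axis). All points lie below -1, and GASK1B moves most, from -2.57 with voom to -1.14 at a pseudocount of 1, where it meets PRAG1 at -1.11.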

How the data were processed

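RNA-seq was measured in 3 untreated and 3 phosphoramidon libraries. The deposited values are FPKM per Ensembl gene, per library, as found from the values. Per the submitters' processing notes, which give no role or order, HISAT2 2.1.0 and featureCounts 1.6.0 were among the tools and GRCh38 was the build, beside DESeq2 1.22.1, Trimmomatic 0.38, CASAVA and quality reports. Fragments (reads or read pairs, not stated) were recovered from the step of each library and GENCODE 29 exon lengths. Values were whole within 0.05 for 79.2% of 34623 genes above 0, with lengths searched for most others, TRIM55 included. Genes with at least 10 fragments in at least 3 libraries were tested with limma 3.58.1 (R 4.3.3) on log2(FPKM + 0.1) after TMM scaling (30% and 5% trimmed), with a trended, robust prior and Benjamini-Hochberg adjustment over all 16215 genes.

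The 6 genes and the lists were chosen with earlier results of these data known. Named besides them are close paralogs, up to 4 called genes per list with the largest changes, the nearest tested neighbours and the 2 most similar genes each, with marker genes and those at 0 named by list. In simulated data 200 genes were changed, equally often up and down, with the spread between libraries set alike for all genes. On 15767 genes tested there, 89.7% of 2-fold and 74.0% of 1.5-fold changes were recovered, and 0.0642% of unchanged genes were called. Far more genes were called in the real data (33.5% of those tested), so these rates need not hold for them. Symbols came from a gene name table (37892 of 38126 IDs), and promoter sequences from RefSeq.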

Additional observations from a re-analysis of the deposited data

How the results depend on the processing

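The 6 genes kept their direction under all 13 alternatives. Their median log2 fold change was -1.49, and it moved by more than the spread between replicates to -1.42 on the values as deposited and to -1.30 at a pseudocount of 1, with -1.50 to -1.48 when 1 library was left out. Without a filter on low genes, 1379 genes were called higher, and 11 related and 3 neighbouring genes rose while 3 neighbours fell, and the cause was not tested. With a mean FPKM of at least 1, 4 neighbours fell, where PCED1B, ADGRG3 and GASK1B-AS1 lay below this mean and were left out of the test. With voom 11 fell, and on the values as deposited 9 rose, where the cause was not tested. Leaving out 1 library gave 3 to 5 neighbours higher and 3 to 8 lower. Of 39 list genes, paralogs, nearest neighbours and similar genes that passed and were named by rule, 30 did so under every one of these alternatives that gave them a value, and none changed sign. The cell type markers and further neighbours named in the text were not rerun one by one. Leaving out genes that passed the filter through 1 group alone, chosen after seeing the data, kept each count within 1.5 times. The labels do not say whether equal replicate numbers pair the libraries. Deviations of libraries with the same number had correlations of 0.11, -0.02 and -0.01 for numbers 1 to 3. These were not compared with libraries of unlike numbers, so they do not settle the pairing. With the number as a replicate block, 2553 genes were higher and 2884 lower (2527 and 2902 without it), 22 related genes rose and 23 fell, 6 neighbours rose and 8 fell, and the median of the 6 genes was -1.49. GASK1B and its antisense gene, and ADGRG3, rest on few fragments in treated libraries, which limits their precision.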
